A study of Arabidopsis thaliana with 10 samples.

Results

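The PLETHORA and BBM genes examined here are PLT1 (AT3G20840), PLT2 (AT1G51190), PLT3 (AT5G10510, annotated as AIL6) and BBM (AT5G17430) of *Arabidopsis thaliana*. Their chromatin loops were taken from 5 lists, 1 for each antibody, as every loop with an anchor that touched the locus by at least 1 bp. A locus ran from 1 kb upstream of the transcription start site (TSS) to the end of the gene. By this rule 34 of the 59276 loops in the 5 lists belonged to the 4 genes, and 32 of the 34 were in the H3K27me3 list. The other 2 were in the H3K4me1 list and lay at the downstream end of PLT3.

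The 4 genes encode transcription factors of the AINTEGUMENTA-like clade of the AP2 family. PLT1 and PLT2 act redundantly to specify the root stem cell niche, where auxin accumulation and secreted RGF peptides set a gradient of PLETHORA protein. PLT3 acts with them in the root and also takes part in lateral root, leaf and flower positioning, and BBM promotes embryo identity and can induce somatic embryos when it is overexpressed. H3K27me3 is the histone mark laid down by Polycomb repressive complexes, and in plants it covers many developmental regulators in tissues where they are not in use.

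ChIA-PET, which joins the ends of chromatin fragments held together by a chosen protein and sequences them as pairs, had been performed on shoots, without roots, of wild-type Col-0 seedlings at 2 weeks of age, grown under a long photoperiod and given no treatment other than cross-linking. The tested enrichments were the Polycomb mark H3K27me3, the active marks H3K4me3 and H3K4me1, RNA polymerase II (RNAPII) and the heterochromatic mark H3K9me2, with 2 labelled replicates each (10 samples). The authors had combined the replicates, so each antibody has 1 pooled list. The list names carry 3 library numbers for H3K27me3, 4 each for H3K4me3 and H3K4me1 and 2 each for RNAPII and H3K9me2, and how these relate to the labelled replicates is not known here. No spread between replicates and no test between antibodies could be had. A shoot is a mixture of cell types, and a loop carried by few cells cannot be told apart from a weak loop carried by many.

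Each loop is given with its paired-end tags (PETs), the number of sequenced pairs that join its anchors, and with the authors' false discovery rate (FDR). The lists held 6310 loops (H3K27me3), 14465 (H3K4me3), 13633 (RNAPII), 13355 (H3K4me1) and 11513 (H3K9me2), with 101711 to 150731 PETs each. The smallest loops had 5 PETs within and 7 PETs between chromosomes in the H3K27me3 list, and 4 to 6 within and 6 to 8 between chromosomes in the other lists. Intervals below are exact 95% intervals that cover counting error only.

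All 4 genes had H3K27me3 loops, against 19.0% of the 27444 protein-coding genes of the genome (5224 genes) by the same rule. PLT2 had 15 H3K27me3 loops, BBM had 7, PLT1 had 6 and PLT3 had 4, where the median gene with any H3K27me3 loop had 3 and the highest had 28. At least 4 loops were carried by 9.47% of all protein-coding genes. None of the 4 genes had a loop in the H3K4me3 list (background 43.5%), the RNAPII list (27.1%) or the H3K9me2 list (1.42%). In the H3K4me1 list 1 of the 4 genes, PLT3, had loops, beside a background of 33.3%. A locus without a loop in a list may still have PETs below the minimum of that list.

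In summed PETs the order was different. The H3K27me3 loops of PLT2 held 437 PETs (interval 397 to 480) and those of PLT1 held 395 (357 to 436), and these 2 intervals overlapped. BBM followed with 77 PETs (60.8 to 96.2) and PLT3 with 41 (29.4 to 55.6). Each step from PLT1 to BBM and from BBM to PLT3 was larger than the counting intervals. Only 189 of the 5224 genes with an H3K27me3 loop had more PETs than PLT1 and 175 had more than PLT2, whereas 1556 had more than BBM and 2328 more than PLT3, and the median was 34 PETs. These sums include PETs with both ends in the same anchor, and without them the overlap ended, with 154 PETs for PLT1 (131 to 180) and 370 for PLT2 (333 to 410).

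Each gene lay on a single H3K27me3 anchor that began well upstream of its TSS. The PLT1 anchor was 18503 bp long and reached from 14008 bp upstream of the TSS to 4494 bp downstream, which covered the whole gene (chr3:7300444-7303693, plus strand, 9 coding exons). The PLT2 anchor was 11716 bp long, from 6384 bp upstream to 5331 bp downstream, and also covered the whole gene (chr1:18977176-18980618, plus strand, 8 coding exons). The BBM anchor was 7104 bp long, from 3730 bp upstream to 3373 bp downstream, and took in all of the gene (chr5:5742393-5745748, minus strand, 8 coding exons). PLT3 differed from the other three genes. Its anchor was 7740 bp long and ran from 5628 bp upstream to 2111 bp downstream, so that it held the promoter and the first 42.9% of the gene (chr5:3315401-3320323, plus strand, 8 coding exons) and ended in a coding exon of all 7 annotated transcripts.

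**Figure D1:**
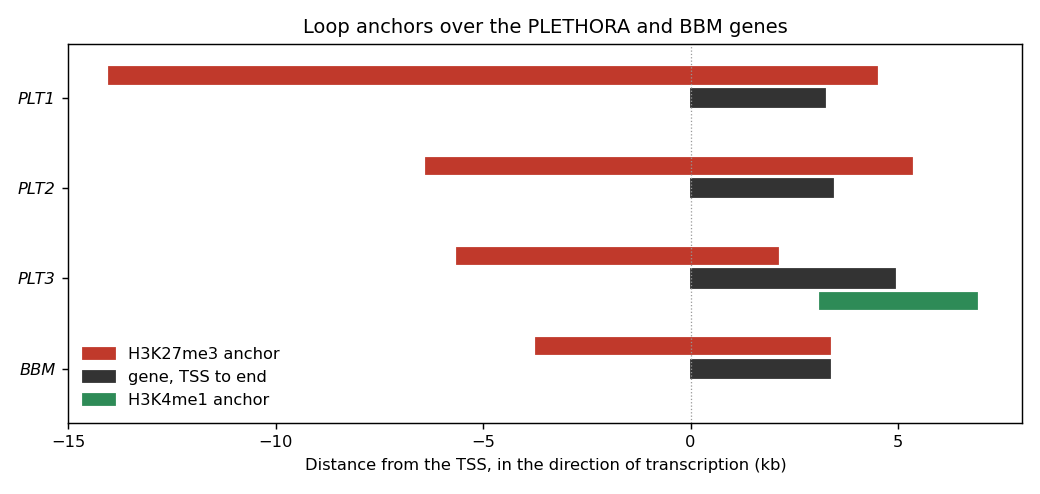
Loop anchors (red, H3K27me3, and green, H3K4me1) over the 4 genes (black), with distance from the TSS in kb along the direction of transcription on the horizontal axis. The H3K27me3 anchors of PLT1, PLT2 and BBM cover the whole gene, while that of PLT3 ends 2111 bp after the TSS and is followed by an H3K4me1 anchor.

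The sequence just before each TSS, which the H3K27me3 anchor covers in all 4 genes, is shown to set the loop data beside the promoter itself. Each run is the 300 bases 5′ of the TSS on the strand of the gene, from the TAIR10.1 assembly of RefSeq: chr3:7300144-7300443 (plus) for PLT1, chr1:18976876-18977175 (plus) for PLT2, chr5:3315101-3315400 (plus) for PLT3 and chr5:5745749-5746048 (minus) for BBM. Capitals mark matches, on either strand, to GAGAGA (a GA repeat, bound by BPC proteins that can recruit Polycomb complexes), AAACCCTA (the telobox, another Polycomb recruitment element of *Arabidopsis*) or TGTCTC (an auxin response element).
PLT1: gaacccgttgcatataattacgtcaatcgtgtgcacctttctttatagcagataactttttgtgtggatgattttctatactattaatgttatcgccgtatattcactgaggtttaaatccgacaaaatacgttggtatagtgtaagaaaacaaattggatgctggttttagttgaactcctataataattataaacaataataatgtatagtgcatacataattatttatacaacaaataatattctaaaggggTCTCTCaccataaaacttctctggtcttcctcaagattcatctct
PLT2: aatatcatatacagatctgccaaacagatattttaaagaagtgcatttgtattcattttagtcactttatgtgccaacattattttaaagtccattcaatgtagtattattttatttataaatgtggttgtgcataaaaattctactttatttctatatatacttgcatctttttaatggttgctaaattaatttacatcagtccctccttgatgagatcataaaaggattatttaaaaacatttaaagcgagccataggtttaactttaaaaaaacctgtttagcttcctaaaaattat
PLT3: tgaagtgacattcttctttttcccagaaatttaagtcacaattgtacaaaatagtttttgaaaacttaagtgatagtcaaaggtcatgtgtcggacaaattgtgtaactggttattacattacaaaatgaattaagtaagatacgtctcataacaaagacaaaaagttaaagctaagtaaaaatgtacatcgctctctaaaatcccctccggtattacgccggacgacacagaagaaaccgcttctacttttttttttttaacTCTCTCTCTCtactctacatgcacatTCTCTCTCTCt
BBM: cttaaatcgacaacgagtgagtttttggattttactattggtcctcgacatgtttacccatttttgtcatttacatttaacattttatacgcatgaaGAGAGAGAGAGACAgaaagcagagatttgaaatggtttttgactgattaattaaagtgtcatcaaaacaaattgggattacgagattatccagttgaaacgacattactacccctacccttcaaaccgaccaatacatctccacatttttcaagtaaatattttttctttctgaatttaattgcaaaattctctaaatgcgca

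The 4 windows differed in their motifs. PLT3 had 6 overlapping GA repeat matches in 2 tracts that began 37 and 11 bases before the TSS, BBM had 4 overlapping matches in 1 tract that began 203 bases before the TSS with 1 auxin response element that overlaps its end, PLT1 had 1 GA repeat 45 bases before the TSS and PLT2 had none of the 3 motifs. By comparison 23.6% of the upstream windows of all protein-coding genes had a GA repeat, 13% an auxin response element and 5.21% a telobox, so these motifs are common at this length. Over the whole H3K27me3 anchors GA repeats numbered 1.03 per kb at PLT1, 1.62 at PLT2, 2.2 at PLT3 and 1.97 at BBM, where H3K27me3 anchors had a mean of 1.3 and a median of 1. The telobox had 0.378 per kb (7 matches) at PLT1, 0.171 (2 matches) at PLT2, 0.129 (1 match) at PLT3 and 0.141 (1 match) at BBM, beside a mean of 0.195 and a median of 0, and with so few matches no order is read from them. These are matches of letters, and binding was not measured.

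At PLT1 the loop with the most PETs was inside the anchor itself. PETs with both ends in the PLT1 anchor numbered 241 (interval 212 to 273; FDR 1.26e-157), which was rank 13 among the 807 H3K27me3 anchors with such a loop, where the median was 18. By width the PLT1 anchor was rank 18 of 3171, and anchors of like width had values on both sides, such as 278 PETs at 17935 bp and 192 at 18199 bp. The PLT1 anchor also holds AT3G20850 and the first bases of UCNL, an AGC kinase gene on the minus strand, so the PLT1 loops are shared by 3 protein-coding genes. Away from the anchor there were 5 partners. The most PETs, 67 (51.9 to 85.1; FDR 9.49e-11), joined PLT1 to a 20623 bp anchor 68.5 kb away that holds AT3G20980, a gene related to Gag-Pol retrotransposons, the defensin-like genes LCR55 and LCR56, AT3G21000 and 6 pseudogenes. This partner had 18150 tags, more than the PLT1 anchor itself. WIP4, whose zinc finger protein helps to specify root initials in the embryo, was joined by 44 PETs (32 to 59.1; FDR 7.39e-24) at 19.2 kb. Per 1000 tags of the partner anchor the order turned, with 11.6 PETs for WIP4 and 3.69 for the AT3G20980 anchor.

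The remaining PLT1 loops were smaller. An anchor with AT3G20760, which encodes an Nse4 subunit of a DNA repair complex, and the transcription factor gene GATA29 had 29 PETs (19.4 to 41.6) at 39.2 kb. The F-box gene SAF1, 15801 kb away on the same chromosome, had 8 PETs (FDR 0.0381). The last partner, with 6 PETs (FDR 0.0204) at 79.7 kb, held no annotated gene. Its centre is printed because no gene name can stand for it (chr3:7215857-7216156, plus strand, 300 bases), and the capitals mark its only match to the 3 motifs, a telobox on the minus strand, which 5.61% of the centres of all H3K27me3 anchors hold.
PLT1 partner region: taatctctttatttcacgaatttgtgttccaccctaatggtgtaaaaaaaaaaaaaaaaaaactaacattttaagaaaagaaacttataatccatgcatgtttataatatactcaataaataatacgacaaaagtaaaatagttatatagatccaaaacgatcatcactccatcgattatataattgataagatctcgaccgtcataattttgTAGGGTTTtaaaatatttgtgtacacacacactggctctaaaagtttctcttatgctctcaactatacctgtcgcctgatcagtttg

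PLT2 had the widest set of partners of the 4 genes, with 14, of which 7 were within 100 kb, 2 between 100 kb and 1 Mb, 3 farther on chromosome 1 and 2 on other chromosomes. The anchor holds no other protein-coding gene. The strongest loop, with 114 PETs (94 to 137; FDR 1.03e-85), led over 16.9 kb to the anchor of WIP5, a close relative of WIP4, which also holds AT1G51210 and AT1G51230. The next anchor along the chromosome, with AT1G51270 and LPAT3 among its 6 genes, had 91 PETs (73.3 to 112) at 31.8 kb. PETs within the PLT2 anchor came after these, with 67 (51.9 to 85.1), and an anchor of 6 genes at 60.1 kb on the upstream side, with AT1G51040 for a protein kinase, had 42 (30.3 to 56.8).

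The other nearby partners of PLT2 had 5 to 15 PETs. They were the anchors of BSK11, a kinase of the brassinosteroid signalling family, with 15 PETs at 72.9 kb, of AT1G51355, related to SMR cell cycle inhibitors, with 10 at 65.2 kb, of a region without a protein-coding gene with 10 at 18.4 kb, and of the protease gene DEG6 with 5 at 27.7 kb. DEG6 had few PETs but also the smallest anchor, with 168 tags, so that it reached 29.8 PETs per 1000 partner tags against 14.6 for WIP5. Its 5 PETs are the minimum of the list, so any listed loop to this anchor has a high ratio, and no order is read from it. At 115 kb the beta-glucosidase genes BGLU35 and BGLU36 had 20 PETs (FDR 0.0047). At 577 kb the hydrolase gene AT1G52470 had 17, with an FDR of 0.0492 that is close to the limit of the list. The farthest partners were HDG2, a homeodomain gene of the epidermis (10 PETs, 17459 kb), AT1G77650 (9 PETs, 10205 kb), AT1G05080 (7 PETs, 17517 kb), AT3G43120 on chromosome 3, of the SAUR auxin-responsive family (11 PETs), and ACS5 on chromosome 5, an enzyme of ethylene synthesis (9 PETs). The FDR of these 5 loops lay between 0.00726 and 0.0479.

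Some partners of PLT2 and of PLT1 were also looped to each other. Of the 91 possible pairs of its partner anchors 9 had an H3K27me3 loop of their own, led by WIP5 with the AT1G51270 anchor (174 PETs), BSK11 with the AT1G51040 anchor (75 PETs), the AT1G51040 anchor with the AT1G51270 anchor (45 PETs) and the AT1G51040 anchor with WIP5 (40 PETs). All 9 lay on the local stretch between BSK11 and BGLU35. At PLT1, 1 of 10 pairs was linked, WIP4 with the AT3G20980 anchor (20 PETs), and none of 3 pairs at PLT3 and none of 15 at BBM was. The share of linked pairs among partners of other H3K27me3 anchors was not counted, so nothing particular to PLT2 can be read from these links.

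**Figure D2:**
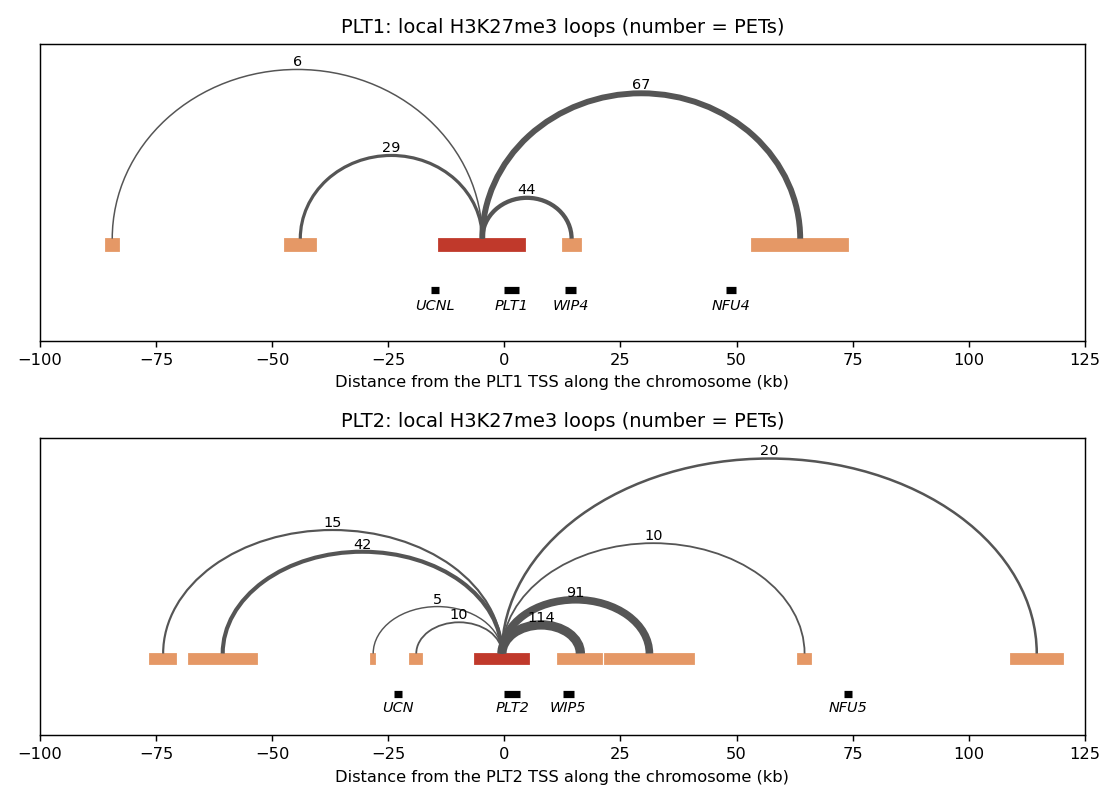
H3K27me3 loops of PLT1 (top) and PLT2 (bottom) to nearby anchors, drawn as arcs labelled with their PETs and wider for more PETs, over the distance from the TSS in kb. Red boxes are the anchors of PLT1 and PLT2, orange boxes are partner anchors, and black bars are genes of a shared order. WIP4 takes 44 PETs at PLT1 and WIP5 takes 114 at PLT2.

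PLT1 and PLT2 sit in the same order of related genes, with a kinase gene (UCNL or UCN) on one side and a WIP gene and an NFU iron-sulfur scaffold gene on the other, and these pairs were compared after the loops had been seen. Counted between the leftmost bases of the genes, WIP4 lies 13.1 kb from PLT1 and WIP5 12.6 kb from PLT2, and both were looped to the PLETHORA gene in the H3K27me3 list. Of the 4 genes between PLT1 and WIP4, AT3G20850, inside the PLT1 anchor, had 6 H3K27me3 loops and AT3G20870, whose locus reaches the WIP4 anchor, had 3, while NEK5 and AGP40 had no loop in any list. Of the 2 genes between PLT2 and WIP5, AT1G51210, at the WIP5 anchor, had 8 H3K27me3 loops and AT1G51200 had no loop in any list. The kinase genes differed, as UCNL overlapped the edge of the PLT1 anchor and had 1 H3K4me3 loop of its own, while UCN, 23.7 kb from PLT2 by the same count, had no loop in any list. The NFU genes had no H3K27me3 loop. NFU4 had 1 H3K4me1 loop and NFU5 had 29 H3K4me3 and 2 RNAPII loops, and none of these led to PLT1 or PLT2.

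PLT3 had the fewest H3K27me3 loops of the 4 genes, and its PETs were low in each. PETs within the anchor numbered 17 (9.9 to 27.2), below the median of 18 for anchors with such a loop. The partners were AT5G10580, a gene of unknown function 34.2 kb away (9 PETs, FDR 0.0176), the MATE transporter gene AT5G38030 at 11860 kb (8 PETs, FDR 0.0445), and LRX2 on chromosome 1, which encodes a cell wall extensin of root hairs (7 PETs, FDR 0.0185). These counts have overlapping intervals, and no order can be read from them.

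PLT3 was also the only one of the 4 genes with loops outside the H3K27me3 list. An H3K4me1 anchor of 3791 bp began 999 bp after the end of the H3K27me3 anchor, in an intron, and ran from 3111 to 6901 bp downstream of the TSS. It covered 1812 bp (36.8%) of PLT3 and 2433 bp of RBK1, a kinase gene on the opposite strand (chr5:3319870-3322935) that overlaps the end of PLT3 by 454 bp. Its midpoint lay 84 bp beyond the end of PLT3, and whether its 2 loops belong to PLT3 or to RBK1 cannot be told apart. They held 16 PETs (9.15 to 26). A loop of 7 PETs (FDR 6.98e-05) led over 10.1 kb to the metalloprotease gene AT5G10540, and a loop of 9 PETs (FDR 0.0288) led to AT1G67120 on chromosome 1, which encodes a midasin-like protein of ribosome assembly. The AT1G67120 anchor held 49773 tags, so this loop had 0.181 PETs per 1000 partner tags against 1.03 for AT5G10540.

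BBM was joined to 6 partners, with 22 PETs (13.8 to 33.3) within its own anchor. GAD, a glutamate decarboxylase gene 32 kb away, had 14 PETs (7.65 to 23.5; FDR 0.000318). FLC, the repressor of flowering that is itself a well-known Polycomb target, had 12 PETs (6.2 to 21) over 2569 kb, with an FDR of 0.04 that is close to the limit of the list. HIPP21, a metal-binding protein gene 9.69 kb away, had 11 PETs and the lowest FDR of the BBM loops (4.31e-16). The HIPP21 anchor was 860 bp long with 245 tags, and its 44.9 PETs per 1000 partner tags were the highest value among the 28 H3K27me3 loops of the 4 genes to another anchor. The minimum of 5 PETs for a listed loop within a chromosome keeps this ratio high at any anchor with so few tags. The other partners were WRKY42 on chromosome 4, a WRKY transcription factor gene (7 PETs), and 2 anchors more than 9 Mb away on chromosome 5, AT5G38790 (6 PETs, 9788 kb) and the AT5G38680 and APE1 anchor (5 PETs, 9731 kb).

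**Figure D3:**
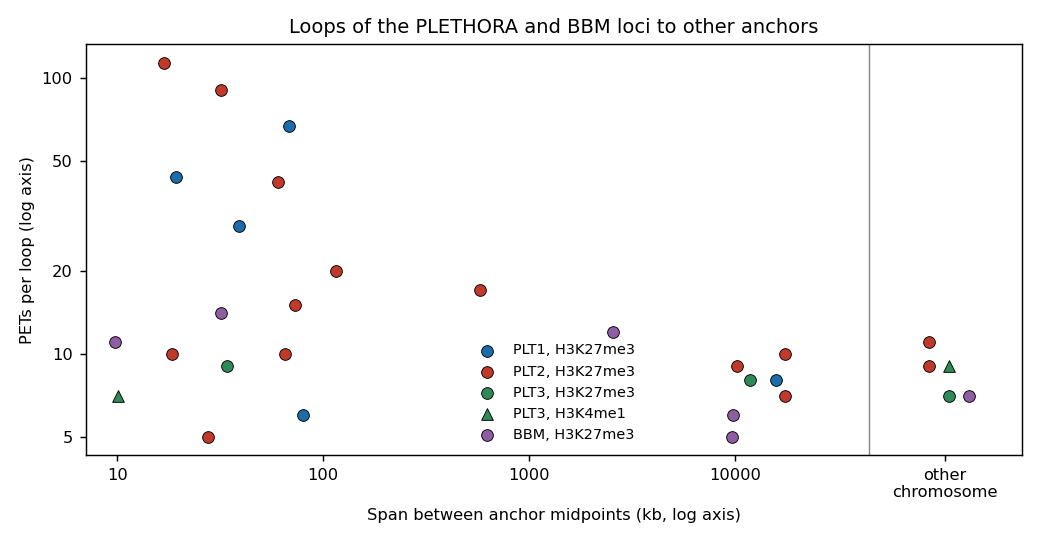
PETs per loop against the span between anchor midpoints (both axes logarithmic), for every loop of the 4 genes to another anchor, with loops to other chromosomes at the right (shifted sideways by gene for visibility). Circles are H3K27me3 loops and triangles H3K4me1 loops of PLT3. The loops above 20 PETs all belong to PLT1 or PLT2 and span less than 100 kb.

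Summed over the 4 genes, loops over short distances held more PETs than the others. The 14 H3K27me3 loops that spanned less than 100 kb held 467 PETs, and the 14 that spanned more or joined chromosomes held 136, with 5 to 20 PETs each. The genes differed in this respect. Short loops held 146 PETs and the others 8 at PLT1, and 287 and 83 at PLT2, whereas they held 9 and 15 at PLT3 and 25 and 30 at BBM. The FDR was below 0.001 in 3 of 5 loops of PLT1 to another anchor, 6 of 14 of PLT2, 2 of 6 of BBM and none of 3 of PLT3. Among loops within a chromosome, 11 of 24 of the 4 genes had such an FDR, against 2558 of 4189 in the rest of the list. The median span of the 24 loops within a chromosome was 70.7 kb (9.69 to 17517 kb), against 24.1 kb in the rest of the H3K27me3 list. Of these 24, 14 spanned less than 100 kb, against 2993 of 4189 in the rest, and 8 (33.3%) exceeded 1 Mb against 22.1% in the rest. With the FDR below 0.001 the medians were 31.8 kb over 11 loops of the 4 genes and 11.6 kb over 2558 loops of the rest. Spans run between anchor midpoints, so wide anchors bar short spans. The 4 anchors were 7104 to 18503 bp wide against 3129 bp at the median anchor, and the shortest span in the rest was 2.32 kb. The part of anchor width in the spans was not tested. Loops between chromosomes made up 4 of 32 (12.5%, interval 3.51 to 29) against 20.5% (19.5 to 21.5) of the other 6278 loops, a difference within the interval. Loops of 1 anchor are not independent, and no test was run.

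Among all 3171 anchors of the H3K27me3 list the 4 anchors stood high in size and depth. By width they ranked 18 (PLT1), 97 (PLT2), 314 (PLT3) and 402 (BBM), and by tags they ranked 15, 37, 284 and 303 with 16434, 12614, 5933 and 5781 tags, against a median anchor of 3129 bp and 1640 tags. Tags per kb were 888 at PLT1, 1077 at PLT2, 767 at PLT3 and 814 at BBM, with 512 at the median anchor. The number of partners did not follow the tags in the same way. PLT2 had 14 partners (rank 52), BBM had 6 (rank 462), PLT1 had 5 (rank 598) and PLT3 had 3 (rank 1059), beside a median of 2, so that PLT1 had more tags than PLT2 and fewer partners. The part of anchor depth in the loop counts of the 4 genes was not tested.

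**Figure D4:**
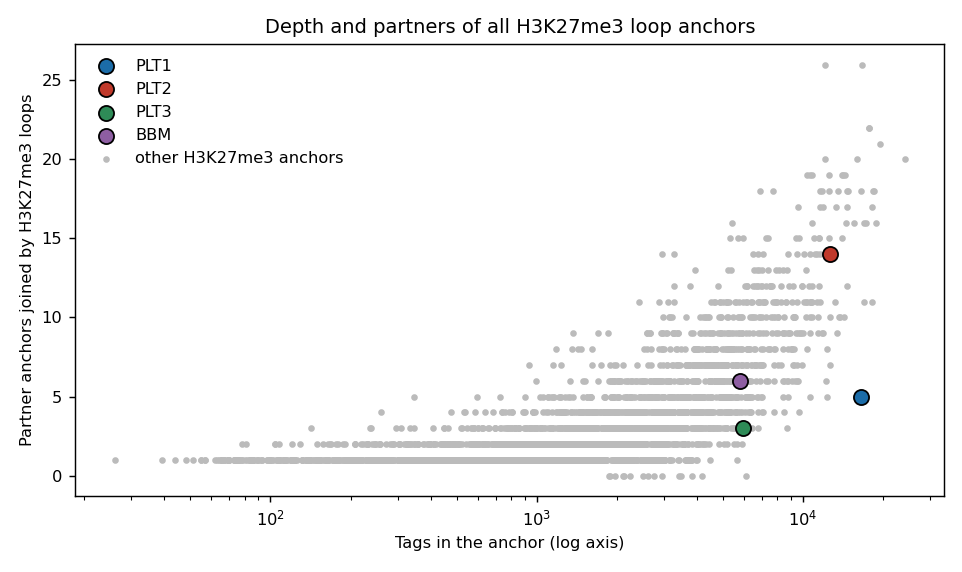
Number of partner anchors against tags in the anchor (logarithmic axis) for each of the 3171 H3K27me3 loop anchors (grey), with the anchors of the 4 genes in colour. PLT2 has 14 partners at 12614 tags, while PLT1 has 5 partners at 16434 tags.

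No partner anchor was met by more than 1 of the 4 genes, and none held a gene of the family or pathway lists below. Sharing was rare in general, as a partner was shared with PLT1 by 26, with PLT2 by 102, with PLT3 by 20 and with BBM by 26 of the about 1880 genes compared, so nothing particular to the 4 genes can be read from this. Genes with the most similar partners were sought among these genes, which had at least 5 partner anchors each, by the Jaccard index (shared partners over all partners of the pair). Genes on the same anchor as the PLETHORA or BBM gene were left out of the comparison. For PLT2 the best value was 0.235, with 4 shared partners, reached by GA2OX7, a gibberellin-inactivating enzyme gene, AT1G50970, AT1G51210, WIP5 and AT1G51230, which all lie within 100 kb of PLT2 and partly share an anchor. For PLT1, PLT3 and BBM the 5 genes with the highest values shared 1 partner each. The best values were 0.111 (WOX4, UBP14 and AT3G20640), 0.143 (AT5G37900, AT5G37910 and AT5G65590) and 0.1 (AT2G22750, TPR13, TPPI and bZIP43).

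Loops at the relatives of the 4 genes varied from gene to gene. Of the other AINTEGUMENTA-like genes, PLT5, which acts in lateral root and leaf positioning, had 10 H3K27me3 loops with 207 PETs and AIL1 had 6 with 73 PETs, while ANT, a promoter of organ growth, and PLT7 had no loop in any list. None of these 4 had a loop in another list. Of the AP2 group, which includes the flower gene AP2 and flowering repressors, 0 of 6 had an H3K27me3 loop. TOE1 had 10 H3K4me3 and 2 RNAPII loops, SNZ had 3 H3K4me3 loops and TOE2 had 1 H3K4me1 loop, and AP2, TOE3 and SMZ had none. In the WRINKLED group, regulators of fatty acid synthesis, WRI1 had 2 and WRI3 had 1 H3K4me3 loops and WRI4 had none. In all, 2 of 13 relatives had an H3K27me3 loop (19.0% of all protein-coding genes), 4 had an H3K4me3 loop (43.5% of all), 1 an RNAPII loop (27.1%), 1 an H3K4me1 loop (33.3%) and 0 an H3K9me2 loop (1.42%). With so few genes the H3K27me3 count is near the background, and nothing particular to the relatives can be read from it.

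In the pathways in which PLETHORA genes act, 19 of 34 listed genes had an H3K27me3 loop (19.0% of all protein-coding genes), 10 an H3K4me3 loop (43.5% of all), 8 an RNAPII loop (27.1% of all), 7 an H3K4me1 loop (33.3% of all) and none an H3K9me2 loop (1.42% of all), and 2 (YUC3 and BRN1) had no loop in any list. The median pathway gene had 1.5 H3K27me3 loops, and the median over all genes was 0. The list was put together with earlier results of these data known, so its counts are a description. All 3 RGF peptide ligands, which raise PLETHORA protein in the root, had H3K27me3 loops (RGF1 and RGF2 2 each and RGF3 5). Of the 5 RGF receptors only RGI1 had H3K27me3 loops (3), while RGI3 had 27 and RGI4 had 44 H3K4me3 loops, RGI2 had 2 H3K4me1 loops and RGI5 had 1 loop in each of these 2 lists.

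The auxin genes were mixed. MP, which acts upstream of PLETHORA genes in the embryo, had 1 H3K27me3 loop of 5 PETs and 8 H3K4me1 loops with 71 PETs. ARF19, an auxin response factor of lateral roots, had 33 RNAPII loops, and ARF7 had 1, 2 and 4 loops in the H3K4me3, RNAPII and H3K4me1 lists. Of the auxin carriers reported here, PIN2, a carrier of the root, had 5 H3K27me3 loops, while PIN3, PIN4 and PIN7 had 29, 5 and 6 H3K4me3 loops and no H3K27me3 loop.

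By role, 4 of 5 listed regulators of the root stem cell niche, 3 of 4 of the root cap and 4 of 5 of the embryo had an H3K27me3 loop, beside the 19.0% of all genes. SHR had 5 H3K27me3 loops, WOX5, which keeps the root stem cells undifferentiated, had 4, JKD had 5 and MGP had 12, whereas SCR, the partner of SHR, had 15 H3K4me3 loops and 1 RNAPII loop. Of the root cap genes BRN2 had 10 and SMB 2, with 1 H3K4me1 loop for SMB, and FEZ had 8 beside 4 RNAPII loops. Of the embryo genes that act with BBM, LEC2 had 12 loops and 500 PETs, more PETs than any of the 4 PLETHORA and BBM genes, ABI3 had 9, FUS3 7 and LEC1 3, and AGL15 had 6 RNAPII loops only. The boundary gene CUC2 had 19. The cofactor TPL, a corepressor, and TCP20, which binds PLETHORA protein, had loops in active lists only.

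**Figure D5:**
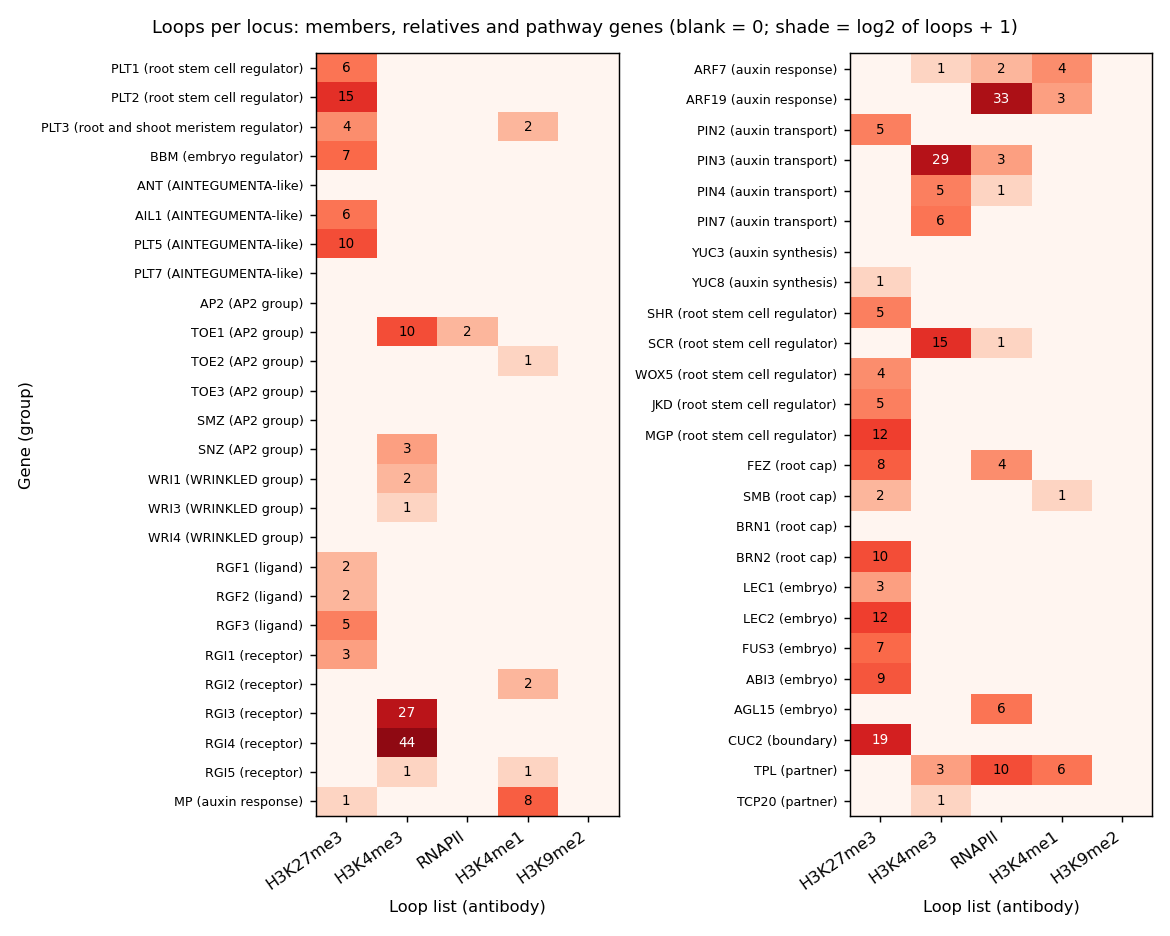
Loops per locus in the 5 lists (columns) for the 4 genes, 13 relatives and 34 pathway genes (rows, with their group), where the number in a cell is the loop count, blank is 0 and darker red is more. PLT1, PLT2, PLT3 and BBM, in the top rows, have 6, 15, 4 and 7 H3K27me3 loops, and the AP2 group has none.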

How the data were processed

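The authors prepared ChIA-PET libraries from Col-0 shoots, processed them with ChIA-PET Tool V3 against TAIR10 with ChIP-seq peaks as given anchors, and combined the replicates of each antibody. The deposited values were whole PET counts and anchor tag counts without normalization, adjusted p-values (FDR below 0.05) and the −log10 of the FDR. The FDR is printed as the value of the authors' loop caller and was used to filter loops. The aligner settings are not given in the sources used here.

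Genes came from the RefSeq annotation of TAIR10.1, whose nuclear chromosomes have the lengths of TAIR10. Coordinates were read as 1-based, and 5 mitochondrial loops were not overlapped with genes. Loci were overlapped with anchors by at least 1 bp, and a partner anchor was named by the protein-coding gene that covers most of it. Because the 4 genes have few partners, all were described beyond the 5 per gene that the naming rule took. PET counts have exact Poisson and shares exact Clopper-Pearson 95% intervals. The lists pool the replicates, so no test, SD or check of replicates was made. The total of mapped pairs was not read from these lists. The overlap code was tested on simulated data. One gene of the pathway list is not reported here. The members, gene lists and rules were chosen with earlier results of these data known. Python 3.11.15, pandas 2.3.3, numpy 2.4.6, scipy 1.17.1 and matplotlib 3.10.9 were used. Alternatives were other overlap rules, PET minimums, a stricter FDR and leaving out loops within an anchor. The pairs of neighbouring genes and PETs per 1000 partner tags were added after the data were seen, as was the span of the rest at the stricter FDR.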

Additional observations from a re-analysis of the deposited data

How the results depend on the processing

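Of 285 alternative values for 36 results, 236 stayed within their limits and 49 moved. For counts the limit was a fixed fold change, and for the other results an interval around the main value. Many of the values that stayed were loop counts of 0, which a stricter rule cannot change, so the tally does not measure how firm the results are. The 4 genes kept H3K27me3 loops under each overlap rule except the rule that the anchor midpoint lies in the locus, which left 2 of 4, as the long upstream parts of the anchors gave 0 loops to PLT1 and PLT3. The H3K4me1 loops of PLT3 depended most on the rule. They were 0 when the anchor had to touch the promoter, when 0.5 of the anchor or locus had to be covered, when the midpoint had to lie in the locus or with at least 10 PETs, and 1 with at least 8 PETs or an FDR below 0.001, and each of the first 4 settings left 0 of 4 genes in that list.

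With an FDR below 0.001, H3K27me3 loops numbered 4 at PLT1, 7 at PLT2, 3 at BBM and 1 at PLT3, with 381, 344, 47 and 17 PETs. PLT1 then held more PETs than PLT2, the reverse of the main order, in which their intervals overlapped. The median span at this FDR was 31.8 kb (11.6 kb in the rest of the list) and the share between chromosomes was 0. With at least 10 PETs, BBM had 4 loops and 59 PETs and PLT3 had 1 loop and 17 PETs, and with at least 8 PETs BBM again had 4 loops and 59 PETs. At an FDR below 0.001 and with at least 10 PETs alike, the 1 loop left at PLT3 was the one within its anchor. No H3K27me3 loop of PLT3 to another anchor was left at these settings. Without loops within an anchor the PETs were 154 (PLT1), 370 (PLT2), 24 (PLT3) and 55 (BBM).

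The background share of genes with a loop fell with stricter rules. For H3K27me3 it was 13.9% with 0.5 covered, 16.1% at the stricter FDR, 18.2% for promoters and 12.6% with at least 10 PETs. In that order it was 26.1%, 29.1%, 16.7% and 18.6% for H3K4me1, 40.4%, 42.1%, 41.9% and 20.6% for H3K4me3, and 18.4%, 20.3%, 20.4% and 11.8% for RNAPII. For H3K9me2 it was 0.896% with 0.5 covered and 0.977% with at least 10 PETs.

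No paired analysis was possible because the authors pooled the replicates of each antibody, and for the same reason no replicate could be left out. Lists differ in depth and PET minimum, so counts are not on a common footing across antibodies, and a loop of 5 to 12 PETs has a wide counting interval.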
